A study of Mus musculus with 8 samples.

Results

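The small leucine-rich proteoglycans are a family of secreted matrix proteins built from leucine-rich repeats, and 9 of their genes were chosen by symbol: Dcn, Bgn, Aspn, Fmod, Lum, Prelp, Omd, Ogn and Podn. All 9 symbols were found among the 17967 listed, and all 9 were among the 13694 genes with enough counts to be tested. RNA was sequenced in bulk from adipose-derived stem cells, fibroblast-like cells of white fat that can become adipocytes, which had been sorted by flow cytometry after collagenase digestion. The cells came from male C57BL/6J wild type mice on chow diet, a background that every group shares, with no other genotype or treatment; ages, the antibodies of the sort, and any pooling of animals were not given in the sources used here. Each of 3 depots gave 2 libraries: inguinal fat under the skin (SWAT), fat along the epididymis (EWAT) and fat around the kidney (NWAT, labelled perirenal). Another labelled depot, mesenteric fat, is not analysed here, because no column of the tables carries its name. Nothing says that both libraries of a depot are from different animals, so the p-values here measure only how far these libraries spread, which may be technical.

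Small leucine-rich proteoglycans sit on the surface of collagen fibrils, where they set fibril width and spacing, and several of them also hold growth factors or bind cell-surface receptors. By protein sequence and gene structure they fall into classes. Decorin (Dcn), biglycan (Bgn) and asporin (Aspn) form class I, fibromodulin (Fmod), lumican (Lum), prolargin (Prelp) and osteomodulin (Omd) belong to class II, osteoglycin or mimecan (Ogn) to class III and podocan (Podn) to class V. Decorin and biglycan carry chondroitin or dermatan sulfate chains, while class II proteins can carry keratan sulfate and sulfated tyrosines. Fibroblasts are a main source of these proteins, and in white fat the stem cells are the fibroblasts that lay down the matrix around adipocytes.

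The libraries held from 20026413 to 20638724 estimated counts. Levels are given as CPM, counts scaled to a common library size; log2 CPM correlated across genes at 0.988 to 0.991 for libraries of a depot and at 0.924 to 0.963 for libraries of different depots. The progenitor markers Pdgfra, Pdgfrb, Cd34, Ly6a, Thy1 and Itgb1 summed to between 4003 and 5160 CPM in every library. At an edgeR adjusted p below 0.05, 3 of the 6 were higher and 1 lower in SWAT than in EWAT (36.7% of all tested genes passed). The calls were 2 and 0 in SWAT against NWAT (18.9%) and 0 and 3 in EWAT against NWAT (27.3%). Thy1 stood at 490 CPM in SWAT against 171 in EWAT and 274 in NWAT. The epithelial markers Epcam, Cdh1, Krt5 and Krt14 summed to at most 0.296 CPM. CPM values were scaled with TMM factors, which correct for a few very abundant genes taking up reads. Scaling by library totals alone lowered the median gene of SWAT by 0.24 (log2) against EWAT and by 0.19 against NWAT, so changes are read relative to the TMM scale.

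The family spanned 3 orders of magnitude, with decorin far above the others. On the FPKM scale, which divides by gene length and so allows genes to be compared, the highest member stood 734- to 2790-fold above the lowest within a library. Dcn was the highest member in all 6 libraries, at 3969 and 4282 FPKM in SWAT, 8542 and 8976 in EWAT and 4905 and 5360 in NWAT. It ranked 2 among all genes in the EWAT and NWAT libraries, and 6 and 5 in those of SWAT. Bgn, Lum and Ogn followed at between 401 and 1256 FPKM, then Prelp at 174 to 305, and Aspn and Podn at 77.9 to 137. Omd (10.04 to 15.8 FPKM) and Fmod (1.63 to 27.9) were lowest, and their order turned around between depots: Fmod lay above Omd in both EWAT libraries and below it in the other 4.

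**Figure D1:**
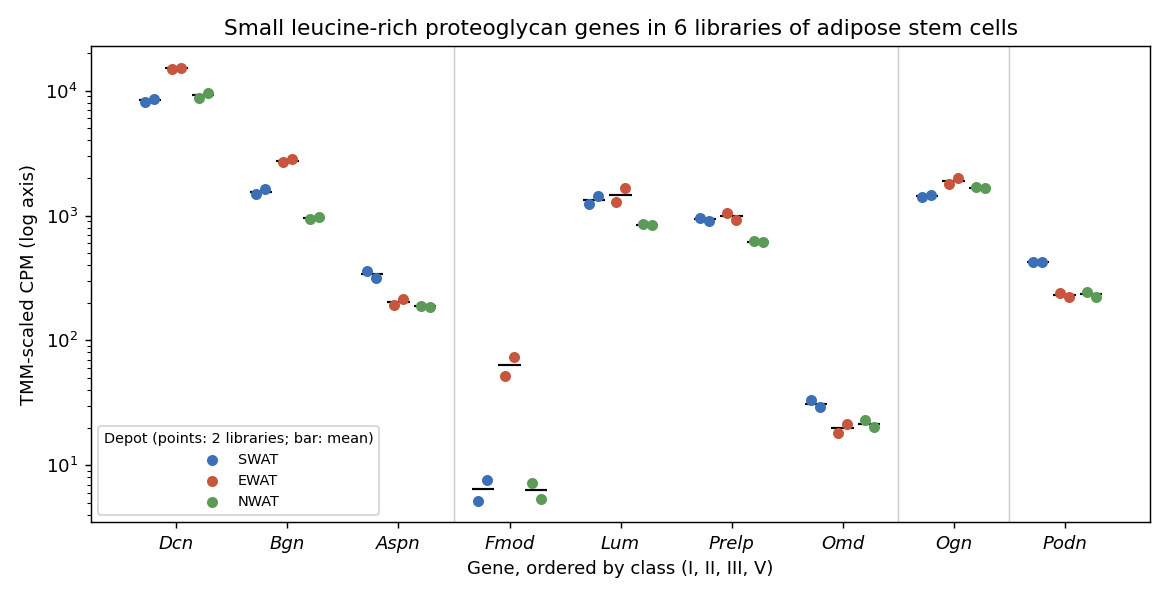
TMM-scaled CPM on a log axis for the 9 genes, ordered by class, with 1 point per library coloured by depot and a black bar at the mean of 2 libraries. EWAT stands highest for Dcn, Bgn and Fmod, SWAT for Aspn, Omd and Podn, and NWAT lowest for Bgn, Lum and Prelp.

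Each of the 9 genes differed among the depots, and the direction split the family into groups. A joint quasi-likelihood test of the 3 depots in edgeR, with a call made below an adjusted p of 0.05 (Benjamini-Hochberg, over all genes), passed for all 9, where 41.7% of all tested genes passed. Between SWAT and EWAT 7 of 9 passed (36.7% of all genes), 3 of them higher in SWAT (18% of all genes) and 4 higher in EWAT (18.7%). Between SWAT and NWAT 6 of 9 passed (18.9% of all genes), 6 of them higher in SWAT (9.07%) and 0 higher in NWAT (9.83%). Between EWAT and NWAT 5 of 9 passed (27.3% of all genes), 5 of them higher in EWAT (13.3%) and 0 higher in NWAT (14%). The median log2 fold change of the members was -0.14 in the pair SWAT against EWAT (all tested genes -0.01), 0.60 in SWAT against NWAT (-0.02) and 0.67 in EWAT against NWAT (0.01). The pairs share libraries, so their counts are not independent of each other.

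Taking both pairwise tests of a depot together, Dcn, Bgn and Fmod were higher in EWAT than in each other depot, a pattern held by 9.02% of all genes. Aspn, Omd and Podn were higher in SWAT than in each other depot, as were 6.21% of all genes. Bgn, Lum and Prelp were lower in NWAT than in each other depot, as were 2.35% of all genes. Bgn was the only member to pass in all 3 pairs, as 5.41% of all genes did. No member was lower in EWAT (8.57% of all genes), lower in SWAT (5.88%) or higher in NWAT (3.42%) than in each other depot. Without library 1 of SWAT the joint test passed for 7 members, Ogn and Omd dropping out, and Ogn was not past it with RLE factors (edgeR adjusted p = 0.0534), with no count filter (0.0517) or without SWAT 1 (0.178), SWAT 2 (0.123), EWAT 2 (0.149), NWAT 1 (0.0826) or NWAT 2 (0.0811). In bulk RNA, fewer cells of a kind and less RNA per cell cannot be told apart.

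**Figure D2:**
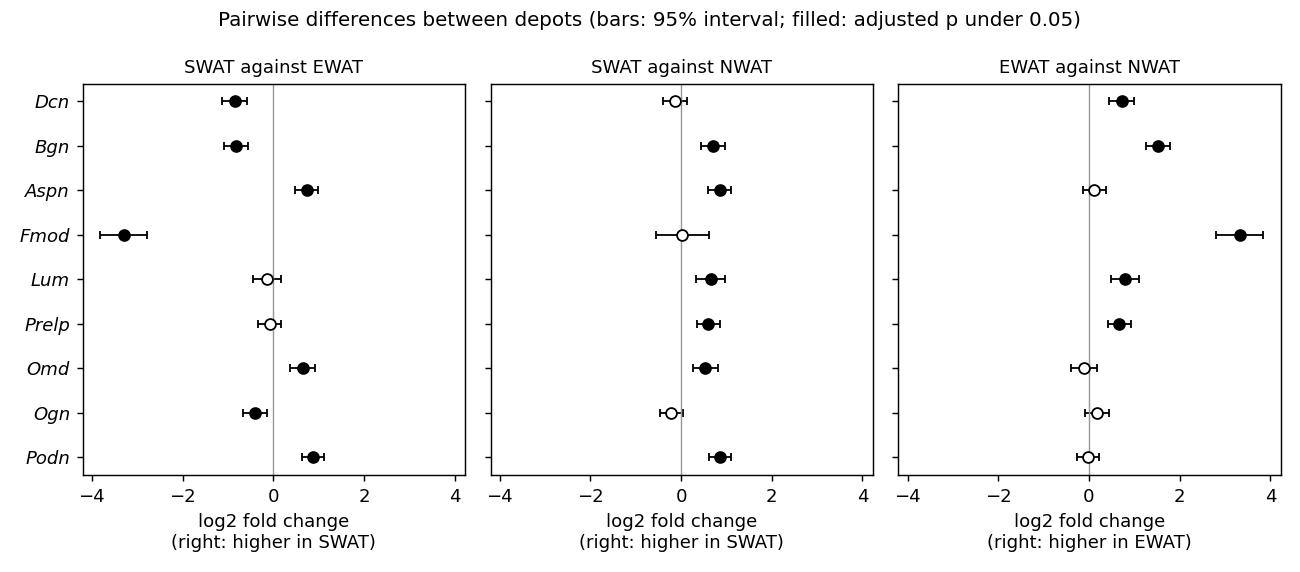
Log2 fold changes of the 9 genes in the 3 pairs of depots, with 95% intervals of the model; filled points passed the adjusted p threshold of 0.05. Fmod lies near -3.30 and 3.32 in the pairs with EWAT and near 0 between SWAT and NWAT, while Aspn, Omd and Podn lie right of 0 in both pairs with SWAT.

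In class I, decorin and biglycan were highest in EWAT and asporin in SWAT. Dcn, which codes for the collagen-binding protein that also restrains TGF-beta, stood at 14960 and 15320 CPM in EWAT, 8190 and 8593 in SWAT and 8754 and 9646 in NWAT. Both EWAT libraries lay above the other 4, and the ranges of SWAT and NWAT did not overlap but lay close. Dcn was 1.80-fold higher in EWAT than in SWAT (log2 fold change SWAT against EWAT -0.85 ± 0.12 (SE), edgeR adjusted p = 2.66e-04) and 1.65-fold higher than in NWAT (0.72 ± 0.12, 0.00122). Between SWAT and NWAT it did not pass, with an interval of -0.40 to 0.14.

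Bgn, the biglycan gene, whose free protein is a ligand of the innate receptors TLR2 and TLR4, was the member that separated all 3 depots. It stood at 2688 and 2817 CPM in EWAT, 1488 and 1623 in SWAT and 934 and 980 in NWAT, with no overlap between depots. The log2 fold change was 1.52 ± 0.12 (SE) for EWAT against NWAT (edgeR adjusted p = 3.29e-06), -0.82 ± 0.12 for SWAT against EWAT (2.38e-04) and 0.70 ± 0.12 for SWAT against NWAT (0.00137). The balance of Dcn to Bgn was alike in SWAT and EWAT and shifted towards Dcn in NWAT. The ratio of Dcn to Bgn FPKM was 7.23 and 6.94 in SWAT, 7.31 and 7.15 in EWAT and 12.2 and 12.9 in NWAT.

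Aspn codes for asporin, a class I protein with an aspartate-rich stretch that binds collagen and TGF-beta. Its level was 361 and 318 CPM in SWAT against 193 and 215 in EWAT and 190 and 186 in NWAT. Both SWAT libraries lay above the other 4, and EWAT and NWAT stood close together. Aspn was 1.67-fold higher in SWAT than in EWAT (log2 0.74 ± 0.11 (SE), edgeR adjusted p = 4.30e-04) and 1.80-fold higher than in NWAT (0.85 ± 0.11, 2.77e-04). EWAT against NWAT did not pass, with an interval of -0.13 to 0.37. The ratio of Dcn to Aspn (FPKM) was 28.9 and 34.5 in SWAT, 99.1 and 90.8 in EWAT and 58.4 and 65.8 in NWAT. Such ratios within a library do not depend on how libraries are scaled.

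Among the class II genes, fibromodulin had the widest range of any member. Fmod, whose protein binds collagen at a site it shares with lumican and takes part in fibril growth, stood at 52.2 and 73.9 CPM in EWAT, 5.21 and 7.59 in SWAT and 7.25 and 5.34 in NWAT. These values rest on 1117 and 1645 estimated counts in EWAT against 95 to 152 in each of the other 4 libraries. The EWAT libraries lay well above the rest, though they differed from each other by more than those of most members, and SWAT and NWAT overlapped. Fmod was 9.82-fold higher in EWAT than in SWAT (log2 -3.30 ± 0.23 (SE), edgeR adjusted p = 5.92e-06), and EWAT against NWAT gave 3.32 ± 0.23 (9.08e-06). Between SWAT and NWAT the estimate was 0.03 with an interval of -0.56 to 0.61, and its sign turned with scaling by totals (-0.16), on FPKM (-0.11) and without SWAT 2 (-0.27) or NWAT 2 (-0.18).

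Lum and Prelp shared another pattern, low in NWAT and alike in level in the other depots. Lum, for lumican, which spaces collagen fibrils in the cornea and skin, stood at 1227 and 1434 CPM in SWAT against 1285 and 1655 in EWAT and 850 and 846 in NWAT. SWAT and EWAT overlapped, and both NWAT libraries lay below the other 4. Its log2 fold change was 0.79 ± 0.14 (SE) for EWAT against NWAT (edgeR adjusted p = 0.00166) and 0.65 ± 0.14 for SWAT against NWAT (0.00754), and -0.14 for SWAT against EWAT with an interval of -0.46 to 0.17. The call for SWAT against NWAT was lost without SWAT 2 (0.54), NWAT 1 (0.65) or NWAT 2 (0.65) and on FPKM (0.46).

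Prelp codes for prolargin, a heparin-binding protein thought to anchor basement membranes to collagen. It stood at 961 and 908 CPM in SWAT against 1047 and 921 in EWAT and 624 and 611 in NWAT. As with Lum, NWAT lay below the other 4 libraries and the ranges of SWAT and EWAT overlapped. The log2 fold change was 0.67 ± 0.12 (SE) for EWAT against NWAT (edgeR adjusted p = 0.00136), 0.60 ± 0.12 for SWAT against NWAT (0.00383) and -0.07 ± 0.12 for SWAT against EWAT (0.649). With library totals as the only scaling, SWAT against EWAT passed as lower (-0.31), 1 of 3 among 17 alternative settings in which this call was gained.

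Omd, for osteomodulin, a keratan sulfate proteoglycan best known from bone, was the least expressed member besides Fmod. Its level was 33.2 and 29.1 CPM in SWAT against 18.2 and 21.6 in EWAT and 23.1 and 20.1 in NWAT. Both SWAT libraries lay above the other 4, while EWAT and NWAT overlapped. SWAT exceeded EWAT by a log2 fold change of 0.65 ± 0.13 (SE, edgeR adjusted p = 0.00226) and NWAT by 0.53 ± 0.13 (0.0126). The call against EWAT was lost in 1 of 17 alternative settings. The call against NWAT was lost without SWAT 1 (0.43) or NWAT 2 (0.44), with library totals as the only scaling (0.34) and on FPKM (0.29).

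Ogn, the class III gene, for osteoglycin, which takes part in collagen fibril assembly, varied least of all members. It stood at 1403 and 1462 CPM in SWAT against 1785 and 1991 in EWAT and 1686 and 1648 in NWAT. SWAT lay below the other 4 libraries, and EWAT above both NWAT libraries. Only SWAT against EWAT passed (log2 -0.40 ± 0.12 (SE), edgeR adjusted p = 0.0209), and that call was lost without SWAT 1 (-0.37), SWAT 2 (-0.43) or EWAT 2 (-0.30). SWAT against NWAT (-0.22, interval -0.48 to 0.04) passed as lower only with library totals as scaling (-0.41) or on FPKM (-0.41), and EWAT against NWAT was 0.18 with an interval of -0.08 to 0.44.

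Podn, the class V gene, codes for podocan, which binds type I collagen. Its libraries were close within each depot, at 422 and 424 CPM in SWAT against 238 and 222 in EWAT and 246 and 223 in NWAT. Both SWAT libraries lay far above the other 4, which overlapped. Podn was 1.84-fold higher in SWAT than in EWAT (log2 0.88 ± 0.11 (SE), edgeR adjusted p = 8.36e-05) and 1.81-fold higher than in NWAT (0.85 ± 0.11, 1.99e-04), and EWAT against NWAT was -0.02 with an interval of -0.26 to 0.22.

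The family as a whole took a larger share of the transcripts in EWAT, mainly through decorin. The 9 genes held 2.34% and 2.51% of all counts in EWAT, 1.26% and 1.36% in SWAT and 1.38% and 1.46% in NWAT. As a share of summed FPKM the values were 3.02% and 2.96% in EWAT, 1.72% and 1.88% in SWAT and 1.87% and 1.92% in NWAT, in which SWAT replicate 2 lay above NWAT replicate 1. The EWAT libraries stood above the other 4 on both scales, while SWAT and NWAT overlapped on the FPKM scale. Shares of a library depend on its other genes, and no test was made of these sums.

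Within the family pool the makeup was more even in SWAT. Dcn made up 65.5% and 65.2% of the members' summed FPKM in SWAT, 73.6% and 72.1% in EWAT and 72.3% and 74.3% in NWAT. Bgn held 9.06% and 9.39% in SWAT and 10.1% in each EWAT library, but 5.91% and 5.78% in NWAT. The class II genes together held 12.96% and 13.5% in SWAT, 8.51% and 9.48% in EWAT and 9.16% and 8.43% in NWAT. Podn held 2.10% and 2.01% in SWAT, 0.761% and 0.683% in EWAT and 1.27% and 1.08% in NWAT. Ogn took its largest shares in NWAT, at 10.2% and 9.26%, against 8.15% and 8.06% in SWAT and 6.37% and 6.80% in EWAT.

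**Figure D3:**
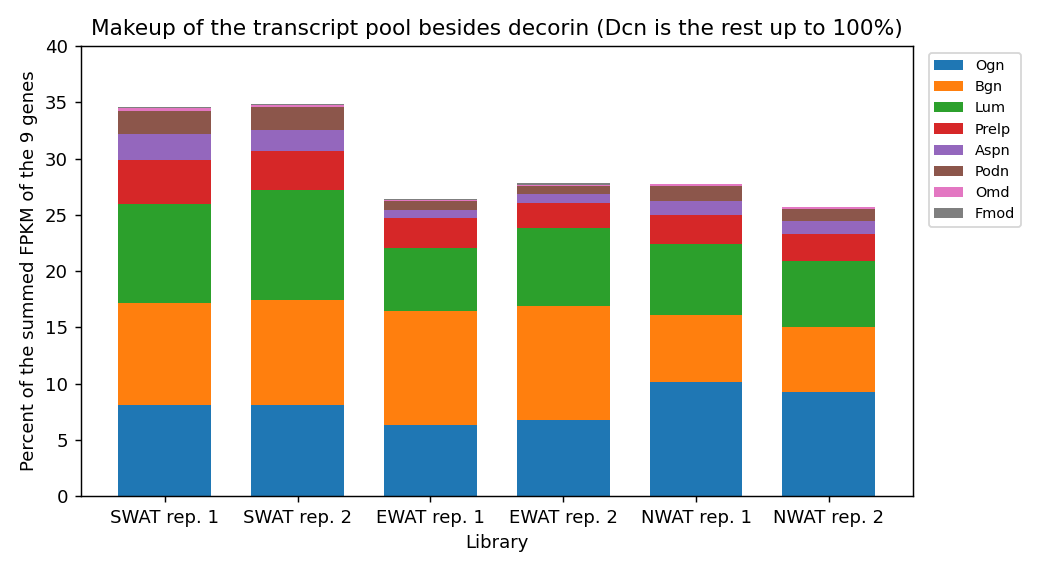
Share of each gene except Dcn in the summed FPKM of the 9 genes, stacked per library; Dcn makes up the rest to 100%. The stacks of SWAT are taller, since Dcn holds 65.5% and 65.2% there, and Bgn is thinnest in NWAT.

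Of the 9 genes, 7 lie in 3 clusters of family genes, and neighbours in a cluster did not always share a direction. Coordinates are from the RefSeq annotation of GRCm38.p6, the build named in the submitters' processing notes. Dcn (chromosome 10, 97479500 to 97518163, plus strand) and Lum (97565501 to 97572703) are followed on the same strand by the keratocan gene Kera and by Epyc, for the class III protein epiphycan, within 202.4 kb. Prelp (chromosome 1, 133910304 to 133930102, minus strand) lies between Optc, for opticin, and Fmod (134037254 to 134048280, plus strand), within 151.1 kb. Ecm2, a class I relative, Aspn (chromosome 13, 49544443 to 49567565), Omd (49582462 to 49592612) and Ogn (49608015 to 49624501) lie on the plus strand within 119.7 kb. Bgn (chromosome X, 73483601 to 73495936, plus strand) and Podn (chromosome 4, 108014793 to 108031954, minus strand) stand alone.

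In the chromosome 10 cluster, the largest difference was that of Epyc and not of a member. Epyc had 1 and 7 counts in SWAT, 228 and 326 in EWAT and 244 and 248 in NWAT. Its level in EWAT was 59 times that in SWAT (95% counting interval 29.7 to 137), and its level in NWAT 55 times (27.7 to 128), with counting error only. The edgeR log2 fold changes were -5.84 ± 0.37 (SE, adjusted p = 5.08e-07) and -5.74 ± 0.38 (1.87e-06). Lum, which lies between Dcn and Epyc, was higher in EWAT than in NWAT like Dcn but did not pass between SWAT and EWAT, where Dcn and Epyc did. Kera had at most 3 counts in a library and was not tested. Btg1, an antiproliferative gene, is the nearest protein-coding gene before Dcn, at a distance not worked out here. It was higher in SWAT than in EWAT (0.67 ± 0.11, edgeR adjusted p = 8.86e-04). Ccer1, the nearest protein-coding gene past Epyc, had at most 1 count in a library.

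In the chromosome 1 cluster Fmod was high in EWAT, whereas Prelp, 107.2 kb away, did not pass between EWAT and SWAT and Optc (2.08 to 2.37 CPM by depot mean) passed in none of the 3 pairs. The genes flanking the cluster moved in the direction of Fmod at smaller size. Btg2 gave -0.59 ± 0.13 (SE) for SWAT against EWAT (edgeR adjusted p = 0.00400), and Atp2b4, a plasma membrane calcium pump gene, -0.93 ± 0.14 (2.97e-04).

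In the chromosome 13 cluster the directions differed between neighbours. Ecm2 was higher in EWAT, at 302 CPM ± 12.4 (SD, n = 2), than in SWAT, at 170 ± 6.72, or NWAT, at 159 ± 10.4 (log2 SWAT against EWAT -0.83 ± 0.11 (SE), edgeR adjusted p = 1.09e-04; EWAT against NWAT 0.93 ± 0.11, 6.57e-05). Aspn, which starts 11.7 kb past the end of Ecm2, and Omd, 14.9 kb further on, were both higher in SWAT. Ogn, 15.4 kb past Omd, was again lower in SWAT than in EWAT, a call that was lost without SWAT 1, SWAT 2 or EWAT 2. All 4 genes overlap Cenpp, a centromere protein gene on the opposite strand, and reads of the strands may not have been kept apart in the counting; Cenpp held 11 to 30 counts per library, against 390 to 606 for Omd. Nol8, which flanks the cluster past Ogn, passed in no pair. Counts of Aspn, Omd, Ecm2, Bgn and Podn were not whole numbers in any of the 6 libraries; those of Dcn, Fmod, Lum, Ogn and Prelp were whole. The cause was not tested.

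**Figure D4:**
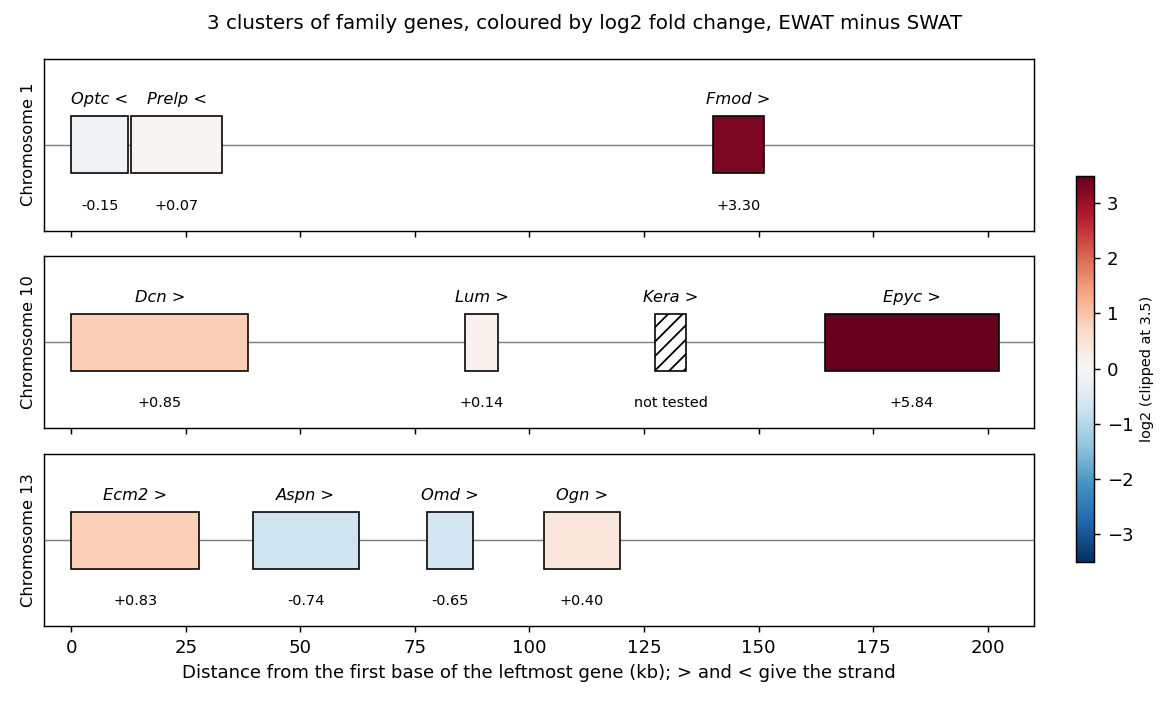
The 3 clusters drawn to scale as distance in kb from the leftmost gene, each box a gene coloured and labelled by its log2 fold change, EWAT minus SWAT. Red Ecm2 (0.83) and Ogn (0.40) flank blue Aspn (-0.74) and Omd (-0.65), and Fmod (3.30) stands beside Prelp (0.07).

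The sequences before the transcription starts of these genes are shown because the 4 neighbours on chromosome 13 differed in direction, and because Fmod and Bgn stood out in EWAT. RefSeq entries of such upstream sequence were found for 7 of the 9 members, and Dcn and Lum have none in the set used. Each line gives the 250 bases upstream of the start, 5′ to 3′ on the strand of the gene, on GRCm38.p6. The windows are chr1:134037004-134037253 for Fmod, chrX:73483351-73483600 for Bgn, chr13:49504560-49504809 for Ecm2, chr13:49544193-49544442 for Aspn, chr13:49582212-49582461 for Omd and chr13:49607765-49608014 for Ogn, each on the plus strand. Capitals mark matches on either strand to 6 short motifs. These are the TATA box, spelled TATAAA, the GC box, spelled GGGCGG, and the CCAAT box, named by its letters. The others are the site of AP-1, spelled TGANTCA, an E-box, spelled CAGCTG, and the core of the SMAD element, spelled GTCTG.
Fmod: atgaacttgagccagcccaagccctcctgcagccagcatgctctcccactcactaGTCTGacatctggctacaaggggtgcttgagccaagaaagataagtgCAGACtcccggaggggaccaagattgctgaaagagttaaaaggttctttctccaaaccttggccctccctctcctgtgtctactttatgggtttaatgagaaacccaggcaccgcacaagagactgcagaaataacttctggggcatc
Bgn: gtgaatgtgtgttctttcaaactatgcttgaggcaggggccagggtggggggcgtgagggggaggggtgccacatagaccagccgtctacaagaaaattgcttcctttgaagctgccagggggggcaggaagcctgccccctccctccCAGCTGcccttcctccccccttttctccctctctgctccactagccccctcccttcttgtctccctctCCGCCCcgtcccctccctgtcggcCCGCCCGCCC
Ecm2: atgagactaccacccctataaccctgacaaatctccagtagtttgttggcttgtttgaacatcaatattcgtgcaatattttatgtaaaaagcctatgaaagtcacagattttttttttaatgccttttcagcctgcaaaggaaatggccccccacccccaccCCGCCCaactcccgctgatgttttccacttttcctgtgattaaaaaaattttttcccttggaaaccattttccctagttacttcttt
Aspn: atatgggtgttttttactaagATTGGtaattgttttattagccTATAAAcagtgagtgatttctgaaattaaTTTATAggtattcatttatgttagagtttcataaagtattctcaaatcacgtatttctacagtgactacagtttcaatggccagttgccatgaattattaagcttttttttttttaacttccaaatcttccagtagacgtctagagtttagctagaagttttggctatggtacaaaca
Omd: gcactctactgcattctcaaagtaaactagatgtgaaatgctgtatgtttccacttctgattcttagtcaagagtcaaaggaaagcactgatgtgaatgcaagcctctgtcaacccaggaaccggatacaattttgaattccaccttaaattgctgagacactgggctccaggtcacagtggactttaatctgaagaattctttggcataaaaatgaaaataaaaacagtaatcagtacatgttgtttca
Ogn: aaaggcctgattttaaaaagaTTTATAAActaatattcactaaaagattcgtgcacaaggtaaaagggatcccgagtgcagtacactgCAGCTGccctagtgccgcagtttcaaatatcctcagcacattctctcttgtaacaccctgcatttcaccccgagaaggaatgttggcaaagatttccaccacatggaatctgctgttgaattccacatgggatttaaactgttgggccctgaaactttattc

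The matches differed from gene to gene. Bgn and Ecm2 each held the GC box, and Bgn and Ogn the E-box. Podn, not shown, held 2 GC boxes in a window, and another of its windows held 0 GC boxes and 1 E-box. Fmod held 0 GC boxes. A link of any motif to the depots was not tested. Upstream of Fmod were 2 SMAD cores, 195 and 148 bases before the start, a motif found in 42.2% of the 32851 windows of this length in the RefSeq table. Bgn had 3 GC boxes (32.7% of windows have any), the nearer of them overlapping each other at the start, and 1 E-box (13%). Ecm2 had 1 GC box. Aspn had 2 matches to the TATA box (12.4%) at 207 and 178 bases and 1 to CCAAT (33.8%). Ogn had an overlapping pair of TATA matches, read on both strands, at 229 and 227 bases, and 1 E-box. Omd had none of the 6, and none of the genes shown had the AP-1 site, which 6.75% of windows hold. A match is a description of the letters only.

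Collagens, the partners on which these proteins sit, had another order among the depots than most of the family. Of 11 tested collagen partner genes, 9 were higher and 0 lower in SWAT than in EWAT, 9 higher and 1 lower in SWAT than in NWAT, and 0 higher and 5 lower in EWAT than in NWAT. The 11 include Lox, for lysyl oxidase and not a collagen, which passed in no pair. Their median log2 fold changes were 1.42, 0.98 and -0.31 in these pairs (all tested genes -0.01, -0.02 and 0.01). The last of these medians, -0.31, was the value of Lox itself. In the same order, 36.7%, 18.9% and 27.3% of all tested genes passed. Col1a1, a chain of type I collagen, stood at 28250 CPM ± 2274 (SD, n = 2) in SWAT, 4331 ± 808 in EWAT and 6321 ± 440 in NWAT. Col12a1, a collagen that rides on fibrils, stood at 149 CPM in SWAT against 20.4 in EWAT and 98.0 in NWAT. Col6a3, which is part of the beaded collagen VI filaments, stood at 8081, 1593 and 2964 CPM. The collagen partner lower in SWAT than in NWAT was Col14a1, named here after its values were seen (984 CPM in SWAT, 987 in EWAT, 1999 in NWAT).

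The balance of decorin to collagen transcripts differed widely between depots. There were 0.889 and 1.04 units of Dcn FPKM per unit of Col1a1 in SWAT, 12.9 and 10.1 in EWAT and 4.25 and 5.18 in NWAT. Against Col3a1 the ratios were 0.458 and 0.489, 3.04 and 2.98, and 1.45 and 1.53. The depots did not overlap in either ratio. Summed over the 9 genes and over Col1a1, Col1a2 and Col3a1, the ratio was 0.345 and 0.383 in SWAT, 2.40 and 2.32 in EWAT and 1.11 and 1.18 in NWAT. Of the members, Aspn, Omd and Podn were highest in SWAT, as were most of the collagens. Between EWAT and NWAT none of these 3 passed, nor did Col1a2, Col3a1, Col5a2, Col6a1 or Col6a2. Col1a1, Col5a1, Col6a3, Col12a1 and Col14a1 were lower in EWAT than in NWAT.

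**Figure D5:**
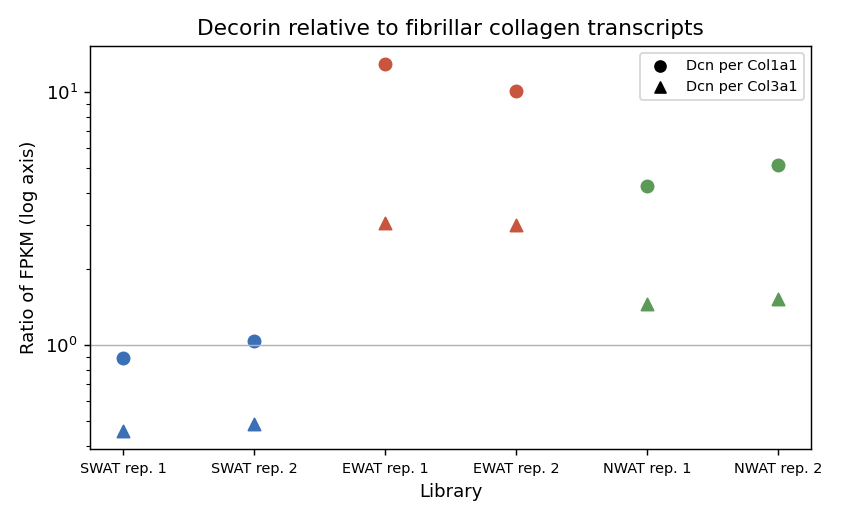
Ratio of Dcn FPKM to Col1a1 (circles) and Col3a1 (triangles) FPKM per library, on a log axis with a line at 1. EWAT is highest at 12.9 and 10.1 per Col1a1, and both SWAT libraries lie near or below 1.

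Of the other family genes, 5 of 9 had enough counts to be tested. Besides Epyc and Ecm2, Tsku, for the secreted class IV protein tsukushi, was higher in NWAT, at 60.1 CPM ± 2.41 (SD, n = 2), than in SWAT, at 30.4 ± 5.97 (log2 SWAT against NWAT -0.98 ± 0.15 (SE), edgeR adjusted p = 9.54e-04), or EWAT, at 39.6 ± 6.92 (EWAT against NWAT -0.60 ± 0.15, 0.0124). Chadl, a chondroadherin-like gene, was higher in SWAT than in EWAT (0.63 ± 0.22, 0.0399). Kera, Chad, Nyx and Podnl1 stayed below 1 CPM as depot means.

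Enzymes that build chondroitin and dermatan sulfate, the chains of decorin and biglycan, differed in single genes and not as a block. Of 21 tested, 6 were higher and 3 lower in SWAT than in EWAT, 4 higher and 0 lower in SWAT than in NWAT, and 4 higher and 5 lower in EWAT than in NWAT. The medians were 0.15, 0.18 and -0.01 (all tested genes -0.01, -0.02 and 0.01). In these pairs 36.7%, 18.9% and 27.3% of all tested genes passed. Chst11, which adds sulfate at carbon 4 of chondroitin, stood at 23.2 CPM in SWAT against 1.42 in EWAT and 5.83 in NWAT (log2 SWAT against EWAT 4.03 ± 0.22 (SE), edgeR adjusted p = 8.32e-08). Xylt1, which starts the chain on the protein, stood at 11.4 CPM in SWAT against 4.42 in EWAT and 8.56 in NWAT (1.37 ± 0.21, 4.71e-04). Chst15, which makes disulfated units, was highest in EWAT, at 85.0 CPM against 32.7 in SWAT and 37.9 in NWAT (-1.38 ± 0.13, 1.02e-05). Chst7, a 6-O-sulfotransferase, stood at 5.61 CPM in SWAT against 2.75 in EWAT and 7.33 in NWAT. The linker enzymes B4galt7, B3galt6, B3gat3 and Fam20b, passed in no pair.

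For keratan sulfate and tyrosine sulfation, the modifications of class II proteins, 10 of 13 genes were tested. The calls were 1 higher and 2 lower in SWAT than in EWAT, 1 and 2 in SWAT against NWAT and 2 and 2 in EWAT against NWAT. Among all tested genes, 36.7%, 18.9% and 27.3% passed in these pairs. B3gnt2, which extends poly-N-acetyllactosamine, stood at 74.2 CPM ± 12.7 (SD, n = 2) in EWAT, 34.0 ± 1.93 in NWAT and 14.7 ± 0.965 in SWAT (log2 SWAT against EWAT -2.34 ± 0.14 (SE), edgeR adjusted p = 1.34e-07). Chst1, a keratan sulfate sulfotransferase, was highest in NWAT, at 117 CPM against 54.8 in SWAT and 57.9 in EWAT. Chst2 stood at 6.71 CPM in SWAT against 3.13 in EWAT and 5.82 in NWAT, and B4galt1 at 399, 406 and 290. Chst5 had 0 counts in all 6 libraries, and the sulfate donor genes Papss1, Papss2 and Slc35b2 passed in no pair.

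Genes for proteases that process or cut these proteins were listed with Pcolce and Pcolce2, which code for helpers and not proteases. Listed genes more often stood higher than lower in SWAT against EWAT, and were mixed in SWAT against NWAT. Of 11 tested, 7 were higher, Pcolce and Pcolce2 among them, and 2 lower in SWAT than in EWAT. The calls were 5 and 3 in SWAT against NWAT. For EWAT against NWAT the calls were 0 and 6. The medians were 0.51, 0.12 and -0.41 (all tested genes -0.01, -0.02 and 0.01). By share, 36.7%, 18.9% and 27.3% of all tested genes passed in these pairs. Mmp3, stromelysin, which can cleave decorin, stood at 685 CPM ± 45.5 (SD, n = 2) in SWAT, 65.9 ± 24.5 in NWAT and 4.90 ± 0.136 in EWAT. Pcolce, a helper of procollagen processing, stood at 1634, 674 and 402 CPM in the same order, and Tll1, a tolloid-like protease related to Bmp1, at 13.3, 5.76 and 1.65. Adamts4, an aggrecanase, went the other way, at 115 CPM in SWAT against 403 in EWAT and 528 in NWAT (log2 SWAT against EWAT -1.81 ± 0.20 (SE), edgeR adjusted p = 9.84e-05).

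Among receptors and growth factors that the proteoglycans bind, 6 of 20 tested genes were higher and 3 lower in SWAT than in EWAT. The calls were 5 and 2 in SWAT against NWAT, and 5 and 6 in EWAT against NWAT. Over all tested genes, 36.7%, 18.9% and 27.3% passed in these pairs. Egfr, a receptor for decorin, stood at 1137 CPM in SWAT against 620 in EWAT and 472 in NWAT (log2 SWAT against NWAT 1.27 ± 0.14 (SE), edgeR adjusted p = 5.20e-05). Lrp1, an endocytic receptor, stood at 5572, 2781 and 3873 CPM. Ctgf, a matricellular growth factor modulator, was highest in EWAT, at 38.4 CPM against 11.8 in SWAT and 18.4 in NWAT, and Bmp2, a bone morphogenetic protein, lowest there, at 18.9 CPM against 38.2 and 37.6. Tgfb3, Tlr4, Cd14, Cd44, P2rx7 and Met passed in no pair.

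Markers of other cell types moved with some of these results. Mural cell markers (7 genes, 6 tested) summed to 132 and 139 CPM in EWAT, 19.8 and 24.1 in SWAT and 27.8 and 23.7 in NWAT, with 4 higher and 2 lower in EWAT than in SWAT; the sum was mostly Des (90.9 and 95.8 CPM in EWAT). The smooth muscle gene Myh11 was also higher in EWAT, at 27.1 and 23.8 CPM against 1.02 to 5.23 in the other 4 libraries, as were Acta2 (log2 SWAT against EWAT -1.39) and Rgs5 (-1.19). Kcnj8 and Cspg4 were lower in EWAT than in SWAT, and Cnn1 had 0 and 7 counts in EWAT. Macrophage markers (9 genes, 4 of them higher in EWAT than in SWAT and 0 lower) summed to 40.2 and 37.9 CPM in EWAT, 18.9 and 27.9 in SWAT and 24.9 and 23.0 in NWAT. These sums lie beside 14960 and 15320 CPM of Dcn and 52.2 and 73.9 of Fmod in EWAT. Of 5 cartilage markers chosen, 3 were found among the symbols. Sox9 was also higher in EWAT, at 91.0 and 95.3 CPM against 29.3 to 33.6 in the other 4 libraries. Col2a1 stayed at or below 0.194 CPM. Of 5 bone markers chosen, 3 were found. Runx2, beside the SWAT-high Omd, stood at 6.92 and 9.54 CPM in SWAT and 1.47 to 2.21 in the others. Sp7 stayed at or below 0.164 CPM. Dmp1, also of that list, was higher in EWAT, at 0.733 CPM against 0.161 in SWAT (edgeR adjusted p = 0.0149). Mesothelial markers (7 genes, 5 tested) moved with Epyc: 4 were lower in SWAT than in EWAT and 1, Krt19, was higher, with a median log2 of -4.90, and 4 were lower in SWAT than in NWAT, with a median of -4.16. Upk3b stood at 0.108 CPM in SWAT against 3.39 in EWAT and 2.02 in NWAT, and Upk1b had 0 counts in both SWAT libraries. The summed level was 3.51 and 4.27 CPM in SWAT, mostly Krt19 (3.18 and 3.11), then 8.55 and 8.72 in EWAT and 12.2 and 10.7 in NWAT. Of 3 tendon markers, 1 had enough counts to be tested. This was Tnmd, which reached 3.69 and 6.20 CPM in EWAT against 0.274 to 0.970 elsewhere. The untested Scx went the other way, with its lowest depot mean in EWAT (0.0701 CPM, SWAT 0.404, NWAT 0.291). Mkx held 0 to 2 counts per library. Endothelial markers (6 genes) summed to 279 and 242 CPM in SWAT, 233 and 198 in EWAT and 366 and 346 in NWAT. Most of that sum was Tek, at depot means of 241, 198 and 344 CPM, and other markers of the list went the other way. Of the 6, 2 were higher (Cdh5, log2 0.87, and Kdr, 0.96) and 1 lower (Tek, -0.51) in SWAT than in NWAT. In EWAT against NWAT, 2 were higher (Pecam1, 0.77, and Cldn5, 1.14) and 1 lower (Tek, -0.80). Of 3 adipocyte markers tested, Plin1 was lower in SWAT, at 0.803 CPM, than in EWAT (4.22) or NWAT (3.54). Adipoq and Cidec passed in no pair. Of all tested genes, 36.7% passed between SWAT and EWAT, 18.9% between SWAT and NWAT and 27.3% between EWAT and NWAT. The part of these cells in the results was not tested.

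For the 3 members with the widest range, the genes with the most similar profile were found by Euclidean distance between log2 CPM profiles centred on their mean over 6 libraries, among 10295 genes. Closest to Fmod were Rem1 (distance 0.67; 22.8 CPM in EWAT, 2.92 in SWAT, 2.77 in NWAT), Egflam (0.72) and Mfap4 (0.77). Bgn was nearest to Nr2f2, for the nuclear receptor COUP-TFII (0.21; 66.7 CPM in EWAT, 42.01 in SWAT, 25.04 in NWAT), Steap4 (0.28) and Arhgdib (0.29). Genes near Podn included Shank3 (0.13) and the collagen VI gene Col6a1 (0.14; 5443 CPM in SWAT, 2911 in EWAT, 3046 in NWAT). Among the members themselves the closest pair was Aspn and Podn (0.29), followed by Aspn and Omd (0.36) and Omd and Podn (0.44), then Lum and Prelp (0.46).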

How the data were processed

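Per the file headers, the values used are estimated counts by gene symbol, deposited without normalization; 31.7% to 33.1% of genes per library have a count that is not whole. FPKM values, which divide by gene length and library size, were deposited in a separate table. Per the submitters' processing notes, the build was GRCm38.p6, and Cell Ranger and Seurat are listed with no role or version; aligner, counter, annotation, kit and strand setting: not given in the sources used here. Columns were matched to labels by depot letter and replicate number, and 2 columns per table whose letter matches no label were left out.

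Mesenteric fat was not analysed here. For a repeated symbol, the entry with the higher total was used. Estimated counts were rounded, scaled by TMM factors (0.893 to 1.08) and filtered with filterByExpr (count minimum 10, total minimum 15) in edgeR 4.0.16 under R 4.3.3. The quasi-likelihood fit, with depot as the only factor and robust dispersion, used 6 libraries (3 residual degrees of freedom, common biological coefficient of variation 0.0979), with Benjamini-Hochberg adjustment over all genes. Standard errors come from the log2 fold change and the F statistic (its absolute value over root F). Levels are TMM-scaled CPM. The scripts were tested on simulated data. The 9 genes and the lists were chosen with earlier results of these data known. All 9 members were named, with up to 4 genes per list (the most changed among those called whose mean log2 CPM reached 2), the other family genes, the genes flanking a cluster and, for the 3 members of widest range, the 3 genes of nearest profile (1 of them is not reported here); other list members named are examples picked after their values were seen. Alternatives were DESeq2 1.42.0, limma 3.58.1 on log2(FPKM + 1) or log2(FPKM + 0.1), other scalings and filters, and leaving out libraries. Library totals were 20026413 to 20638724 counts; counting error weighs most on Fmod, with 95 counts in its lowest library, and all other members had at least 390. Intervals from counts cover counting error only.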

Additional observations from a re-analysis of the deposited data

How the results depend on the processing

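Over 17 alternative settings, 434 of 459 log2 fold changes of the 9 genes kept their direction where called and their side of the threshold, 19 lost their call, 6 gained one and 0 reversed. No call for Fmod, Aspn or Podn changed in any pair. The number of members past the threshold ranged from 6 to 7 for SWAT against EWAT, 4 to 6 for SWAT against NWAT, 5 to 5 for EWAT against NWAT and 7 to 9 in the joint test when 1 library was left out; a depot's lone library was then assumed to vary like the others. Without NWAT replicate 2, 4 members passed for SWAT against NWAT. On log2(FPKM + 1) with no filter, limma called 3 members for SWAT against NWAT, with Dcn no longer past the threshold in SWAT against EWAT (-1.09) or EWAT against NWAT (0.77) and Bgn not in SWAT against NWAT (0.51); the cause was not tested. Over all genes, leaving out 1 library gave 3085 to 5672 calls for SWAT against EWAT (5020 with all libraries), 1467 to 3323 for SWAT against NWAT (2588), 2129 to 4884 for EWAT against NWAT (3743) and 4084 to 6882 in the joint test (5714). With library totals as the only scaling, 3946 genes were called for SWAT against NWAT, against 2588 with TMM. Of the calls, 20.9% were then higher in SWAT than in EWAT (49.1% with TMM) and 18.9% higher in SWAT than in NWAT (48.0%). On log2(FPKM + 1) these shares were 18.7% and 18.7%, and 58.9% of the EWAT against NWAT calls were higher in EWAT (48.8%). The replicate numbers are shared by the depots, but differences between replicates 1 and 2 correlated little between depots (0.001 to 0.11 over 13694 genes), and no label says that a number marks the same animal. With the replicate number as a block, the members called were 7, 6 and 5 in the 3 pairs and 9 in the joint test, as without it, and the genes called were 5043, 2595, 3793 and 5743. Comparisons with mesenteric fat were planned and not run. Fmod and Epyc in SWAT rest on few counts, which limits their precision.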
